A study of Mus musculus with 9 samples.

Results

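The genes of the integrated stress response that act through the transcription factor ATF4 were followed by nascent transcription in mouse embryonic stem cells over 30 min of doxycycline. The set held 10 genes: Atf4, Ddit3, Trib3, Chac1, Asns, Sesn2, Ddit4, Gdf15, Stc2 and Nupr1. Their measurements were the counting windows, each 600 bp wide, whose centre lay inside one of these genes or within 5 kb of either end, by RefSeq coordinates on mm10. This gave 17 windows of the 174289 in the deposited list. They covered 8 of the 10 genes, since no window met the rule at Atf4 or at Ddit3.

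The assay was PRO-seq, which labels RNA still attached to an elongating polymerase in isolated nuclei. A count therefore reads polymerase engaged within a window and not the amount of finished RNA. All 9 libraries came from one genotype, Firre KO with a Firre inducible transgene, so every library lacked the endogenous long noncoding RNA gene Firre. The 3 groups of 3 libraries were 0 min (no doxycycline), 15 min and 30 min, and doxycycline was given at 1 ng/μL for the 15 and 30 min groups. The cells grew on gelatin in serum medium with LIF and the inhibitors PD0325901 and CHIR99021. No library had doxycycline without the transgene, so the drug and the transgene cannot be told apart. Whether replicates were separate cultures is not stated in the labels, so each p-value reflects variation among these 9 libraries, perhaps technical only.

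In the integrated stress response, kinases that sense misfolded protein, missing amino acids, missing heme or viral RNA phosphorylate the initiation factor eIF2, which lowers translation in general and raises that of ATF4. ATF4, a basic leucine zipper factor, then drives genes for amino acid supply and stress adaptation, often with C/EBP family partners at C/EBP-ATF response elements. Disturbed mitochondrial translation is a known trigger in mammalian cells, and doxycycline, a tetracycline, can inhibit mitochondrial ribosomes. The question asked of these windows was whether any of them held more, or less, nascent signal soon after the drug was added.

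The promoters are shown because the counting windows lie on them and because a script searched them for the core of that response element, TGATGNAA, on both strands. The core was found in 4 of the 11 RefSeq promoter windows of the 10 genes, against 1304 of 32851 promoter windows in the whole RefSeq table (3.97%). The windows run from 250 bases before to 50 after each annotated start, and Gdf15 has 2 of them. The 4 genes with a match were Trib3, Chac1, Asns and Nupr1. The sequences follow in the direction of each gene, 5′ to 3′, on GRCm38.p6, with the match in capitals. Stc2, whose start window fell, is printed beside them and has no match, so it is all in lower case.
Trib3: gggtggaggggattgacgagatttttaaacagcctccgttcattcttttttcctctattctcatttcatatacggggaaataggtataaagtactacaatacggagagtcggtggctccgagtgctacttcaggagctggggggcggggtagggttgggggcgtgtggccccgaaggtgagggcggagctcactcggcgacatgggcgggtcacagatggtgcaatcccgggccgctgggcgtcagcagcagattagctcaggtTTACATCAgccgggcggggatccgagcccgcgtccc
Chac1: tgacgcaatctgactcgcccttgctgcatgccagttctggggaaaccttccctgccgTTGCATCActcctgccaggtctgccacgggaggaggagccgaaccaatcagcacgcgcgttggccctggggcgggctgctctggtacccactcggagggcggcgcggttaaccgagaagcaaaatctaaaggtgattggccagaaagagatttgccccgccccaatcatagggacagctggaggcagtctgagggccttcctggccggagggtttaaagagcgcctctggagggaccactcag
Asns: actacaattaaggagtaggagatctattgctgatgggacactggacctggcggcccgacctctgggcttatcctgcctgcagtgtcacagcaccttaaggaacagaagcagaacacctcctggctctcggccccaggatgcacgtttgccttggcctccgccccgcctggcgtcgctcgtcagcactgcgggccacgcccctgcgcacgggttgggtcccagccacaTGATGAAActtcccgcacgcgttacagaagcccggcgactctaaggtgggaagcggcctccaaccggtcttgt
Nupr1: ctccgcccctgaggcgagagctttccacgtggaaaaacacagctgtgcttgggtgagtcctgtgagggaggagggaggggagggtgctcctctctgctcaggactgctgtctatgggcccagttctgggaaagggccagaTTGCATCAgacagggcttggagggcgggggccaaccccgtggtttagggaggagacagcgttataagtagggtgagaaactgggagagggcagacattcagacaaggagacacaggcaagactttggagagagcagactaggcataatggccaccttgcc
Stc2: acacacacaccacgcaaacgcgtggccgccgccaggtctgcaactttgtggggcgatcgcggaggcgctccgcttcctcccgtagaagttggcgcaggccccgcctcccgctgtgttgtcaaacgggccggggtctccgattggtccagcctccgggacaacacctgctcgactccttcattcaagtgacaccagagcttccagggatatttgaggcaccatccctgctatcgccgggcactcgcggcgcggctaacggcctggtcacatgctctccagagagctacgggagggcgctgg
The Trib3 promoter is chr2:152344011-152344310 on the minus strand, and its match runs from 14 to 21 bases after the annotated start. That of Chac1 is chr2:119350992-119351291 on the plus strand, with the match from 193 to 186 bases before the start. That of Asns is chr6:7693160-7693459 on the minus strand, with the match from 23 to 16 bases before the start. That of Nupr1 is chr7:126625421-126625720 on the minus strand, with the match from 110 to 103 bases before the start. That of Stc2 is chr11:31370012-31370311 on the minus strand. The match of Asns lies on the gene's own strand and the other 3 on the opposite strand. The endoplasmic reticulum stress element was found in 0 of the 11 windows and in 39 of the 32851 (0.119%). A match here is a run of letters and not a measured binding site, and the absence of one says only that these letters are not in this window.

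Each library had between 3813365 and 5980366 reads in the listed windows. Levels are in CPM, which scales each library's reads to one common total, here after TMM scaling, and all windows have the same width, so that levels can be set side by side between genes. A count of 3 reads corresponded to 0.500 to 0.787 CPM, and counting error is only part of the spread between libraries. Differences were tested in one edgeR quasi-likelihood fit over the 54299 windows that passed a filter on low counts, and a window was called at a Benjamini-Hochberg adjusted p under 0.05 over all of them. The transgene responded to the drug: the Firre window held 0.709, 1.12 and 1.84 CPM at 0 min, 117, 143 and 98.9 CPM at 15 min, and 320, 314 and 309 CPM at 30 min. This window was the one inside Firre with the highest mean count over all 9 libraries, a choice that favours windows high after induction. The summed start windows of 6 embryonic stem cell marker genes gave, in CPM, 710 to 740 at 0 min, 692 to 771 at 15 min and 703 to 755 at 30 min. Of the 7 markers fixed for that cell type, Pou5f1 had no start window. At 0 min Nanog and Sox2 averaged 316 and 275 CPM, and Klf4, Tfcp2l1 and Zfp42 between 30.5 and 52.5 CPM. Esrrb averaged only 3.66 CPM, so the sum rests mostly on Nanog and Sox2. Fibroblast markers had start windows for 2 of 6 genes and summed to at most 3.17 CPM in any library. Primitive endoderm markers had them for 2 of 5 and summed to at most 2.48 CPM. These fibroblast and endoderm windows were taken within 1 kb of either gene end, since no start was given here for their genes. No marker that had a window was at 0 in every library. Library 3 of 15 min stood apart from the others, at 91.9 on the second principal component against -62.1 to 22.8 for the other libraries. Values without library 3 of 15 min are given where they change a call. The lowest value on that component, -62.1, was that of library 2 of 0 min. On the first component library 2 of 0 min was at -39.8, against -85.7 and -86.8 for libraries 1 and 3 of 0 min. Counts of the added Drosophila S2 nuclei were not used here, so every change is relative to the other mouse windows, and fewer cells that transcribe a gene cannot be told apart from less transcription per cell. A count at a start also does not tell polymerase held near the start from polymerase that goes on through the gene, which was not tested.

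No window of the stress response genes was called higher at 15 or 30 min. The windows that were called lay inside Gdf15 and at the start of Stc2, and both fell at each time. Of the 17 windows, 14 were tested, and the other 3 (2 upstream of Ddit4 and 1 upstream of Nupr1) held 11, 26 and 65 reads over all 9 libraries and were removed by the filter. At 15 against 0 min, 0 windows were called higher and 2 lower, where 8.25% of all tested windows were called, 4.29% higher and 3.96% lower. At 30 against 0 min, the counts were again 0 higher and 2 lower, where 1.74% of all tested windows were called, 1.24% higher and 0.497% lower. At an unadjusted p under 0.05, 4 of the 14 windows passed at 15 min and 7 at 30 min, all of them lower than at 0 min. Of the 54299 tested windows, 12586 passed that level at 15 min and 8248 at 30 min, in either direction. DESeq2 called the same 2 windows lower at each time and 0 higher. The comparisons of 15 and 30 min share the 0 min libraries, so they are not independent of each other.

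**Figure D1:**
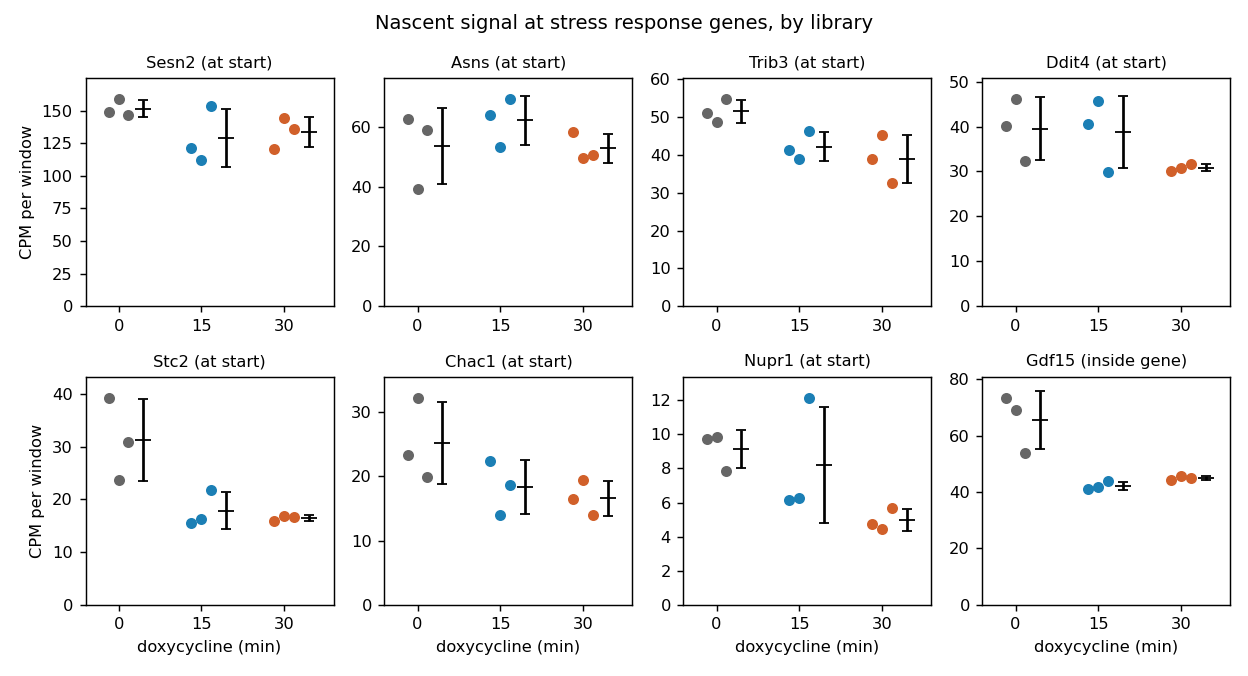
CPM in the main window of each covered gene, by library (dots) at 0, 15 and 30 min of doxycycline, with the mean and SD of 3 libraries (bars). All 3 libraries at 15 and at 30 min lie below all 3 at 0 min for Gdf15, Stc2 and Trib3, while the groups overlap for Asns.

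Atf4, which encodes the factor itself, and Ddit3, which encodes its partner and target CHOP, could not be measured with this list. Atf4 lies at chr15:80255184-80257545, and the nearest windows were centred 6.83 kb above it, at the start of Rps19bp1, and 21.2 kb below it, at the start of Mief1. Ddit3 lies at chr10:127290793-127296291, and its nearest windows were centred 15.5 kb above it, at the start of Mars1, and 19.8 kb below it. The window 6.83 kb from Atf4 averaged 30.8 ± 7.97 CPM at 15 min and 26.5 ± 3.72 CPM at 0 min (SD, n = 3 each). None of these 4 windows was called in any comparison. A gene without a window is not thereby silent: 9165 of 21896 protein-coding genes (41.9%) had no window within 1 kb of a start. Genes whose start was not given here counted as covered by a window at either end. Pou5f1, a defining gene of these cells, was among those without.

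**Figure D2:**
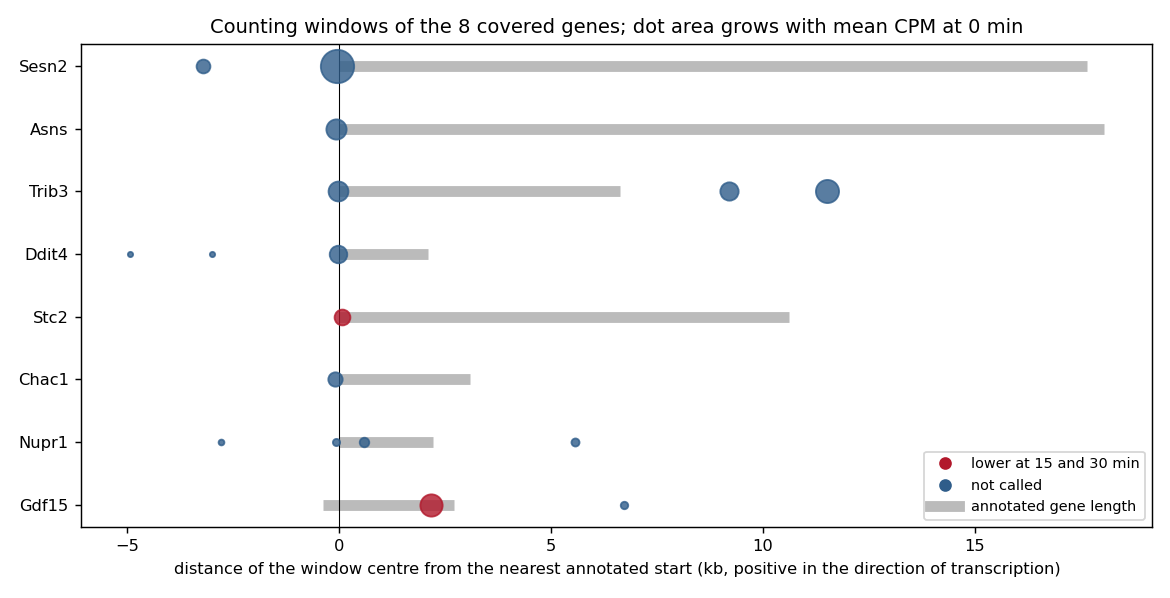
Position of each of the 17 counting windows (dots) relative to the nearest annotated start of its gene, in kb along the direction of transcription, with the annotated gene as a grey bar. Dot area grows with the mean CPM at 0 min, and red marks the 2 windows called lower at both 15 and 30 min, Stc2 at its start and Gdf15 inside the gene.

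The levels at 0 min set Sesn2 apart from the other genes. Its start window averaged 152 ± 6.48 CPM (SD, n = 3), and its lowest library was above the highest of every other start window of the set. Asns followed at 53.6 ± 12.7 CPM and Trib3 at 51.5 ± 3.04 CPM, and these neighbours overlapped. Ddit4 at 39.5 ± 6.95 CPM overlapped Asns and not Trib3. Stc2 at 31.3 ± 7.81 CPM overlapped Asns narrowly, and also Ddit4 and Chac1. Chac1 had 25.2 ± 6.34 CPM. Nupr1 was lowest at 9.15 ± 1.11 CPM in its higher start window and overlapped none of the others. Gdf15 has no place in this order, since it had no window at a start.

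Gdf15 encodes a secreted cytokine of the transforming growth factor beta superfamily that signals stress to the brain. Its stronger window, chr8:70629631-70630230, was centred 2164 bases after the nearer annotated start, inside the gene (chr8:70629393-70632470, minus strand) and near its 3′ end. The window held 73.5, 69.2 and 54.0 CPM at 0 min, 41.2, 41.7 and 44.0 CPM at 15 min, and 44.3, 45.8 and 45.0 CPM at 30 min. Every doxycycline library was below every 0 min library, and the 6 doxycycline libraries lay close together. At 15 min the level was 0.642 times that at 0 min (95% interval 0.531 to 0.777), a log2 change of -0.64 ± 0.13 (SE) with an adjusted p of 0.00340. At 30 min it was 0.685 times (0.567 to 0.828), a log2 change of -0.55 ± 0.13 with an adjusted p of 0.0312. The sources used here do not say whether reads were counted by strand, so it was not resolved whether the reads come from the sense strand of Gdf15.

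The call at Gdf15 held at 15 min under each of the 18 alternatives that were run. At 30 min it was lost with scaling factors taken from gene ends (adjusted p 0.0943). It was also lost without library 1 (0.206) or 2 (0.0708) of 0 min, and without library 1 (0.120), 2 (0.100) or 3 (0.127) of 30 min. The weaker Gdf15 window, chr8:70625072-70625671, lay 4021 bases past the 3′ end. It averaged, in CPM, 4.16 ± 1.84 at 0 min, 3.36 ± 1.87 at 15 min and 3.67 ± 0.599 at 30 min (SD, n = 3 each), with overlapping groups and no call.

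Stc2 encodes stanniocalcin 2, a secreted glycoprotein that inhibits the protease PAPP-A. Its window, chr11:31369695-31370294, was centred 66 bases after the start of the gene (chr11:31359441-31370061, minus strand) and covered 283 of the 300 bases of the promoter printed above. It held 39.3, 23.7 and 30.9 CPM at 0 min, 15.5, 16.2 and 21.9 CPM at 15 min, and 15.9, 17.0 and 16.6 CPM at 30 min. All doxycycline libraries were below all 0 min libraries, and the closest pair was library 3 of 15 min and library 2 of 0 min. At 15 min the level was 0.562 times that at 0 min (95% interval 0.428 to 0.738), a log2 change of -0.83 ± 0.19 (SE) with an adjusted p of 0.00695. At 30 min it was 0.523 times (0.398 to 0.688), a log2 change of -0.93 ± 0.19 with an adjusted p of 0.0104. These were the largest decreases on the log2 scale among the 14 tested windows at each time.

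The call at Stc2 leaned on single libraries. Library 1 of 0 min held the highest value, and without it the adjusted p was 0.0764 at 15 min and 0.132 at 30 min. At 15 min the call was also lost without library 1 of that time (0.0561), and at 30 min without library 1 (0.0592) or 3 (0.0562) of that time. It held under the other alternatives, other scalings and DESeq2 included.

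**Figure D3:**
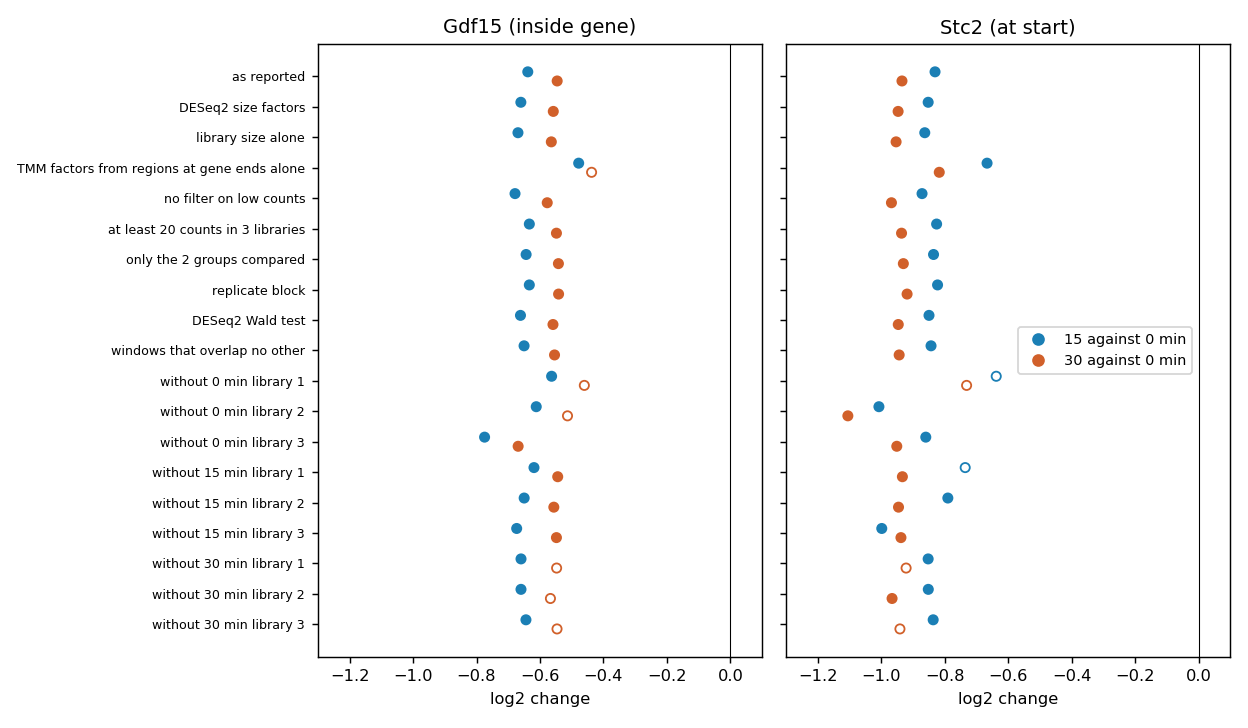
Log2 change of the Gdf15 window inside the gene (left) and of the Stc2 start window (right) under the reported setting and 18 alternatives, one per row, at 15 min (blue) and 30 min (orange) against 0 min. Filled dots have an adjusted p under 0.05. All dots lie below 0, and the open ones are those named in the text, mostly settings that leave out 1 library.

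Sesn2 and Ddit4 encode restraints on the growth kinase complex mTORC1: sestrin 2 is a leucine sensor that acts through GATOR2, and the product of Ddit4, also known as REDD1, acts through the TSC complex. The start window of Sesn2, chr4:132510196-132510795, held 149, 159 and 147 CPM at 0 min, 122, 112 and 154 CPM at 15 min, and 121, 144 and 136 CPM at 30 min. The groups overlapped at 15 min, through library 3 of that time, and did not overlap at 30 min. The log2 change was -0.23 ± 0.12 at 15 min (adjusted p 0.235) and -0.18 ± 0.12 at 30 min (adjusted p 0.495), so neither was called. The start window of Sesn2 was called lower at 15 min without library 3 of that time (log2 change -0.38, adjusted p 0.0245). Its upstream window, chr4:132513361-132513960, centred 3205 bases before the start, averaged, in CPM, 23.2 ± 1.26 at 0 min, 21.1 ± 3.01 at 15 min and 18.0 ± 3.84 at 30 min, with no call.

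The start window of Ddit4, chr10:59951500-59952099, held 40.2, 46.1 and 32.3 CPM at 0 min, 40.7, 45.8 and 29.9 CPM at 15 min, and 30.1, 30.8 and 31.8 CPM at 30 min. At 15 min the libraries spread over the same range as at 0 min. At 30 min all 3 were below the lowest 0 min library by a small margin, with a log2 change of -0.36 ± 0.16 (adjusted p 0.286). Its 2 upstream windows, centred 3004 and 4931 bases before the start, held at most 1.28 CPM in any library.

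Trib3 encodes a pseudokinase that is induced by ATF4 and CHOP and feeds back on ATF4. Its start window, chr2:152343778-152344377, held 51.0, 48.8 and 54.8 CPM at 0 min, 41.3, 38.9 and 46.4 CPM at 15 min, and 39.0, 45.3 and 32.7 CPM at 30 min. All doxycycline libraries were below all 0 min libraries at both times. The log2 change was -0.29 ± 0.14 at 15 min (adjusted p 0.216) and -0.40 ± 0.14 at 30 min (adjusted p 0.159), so that neither passed the threshold. A further window, chr2:152334551-152335150, lay 2574 bases past the 3′ end of the gene.

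That window held 41.6, 40.5 and 47.5 CPM at 0 min, 30.3, 31.1 and 36.2 CPM at 15 min, and 26.1, 31.3 and 33.4 CPM at 30 min. Its groups did not overlap either, with a log2 change of -0.41 ± 0.15 at 15 min (adjusted p 0.0845) and -0.51 ± 0.15 at 30 min (adjusted p 0.0732). Without library 3 of 15 min it was called lower at 15 min (log2 change -0.50, adjusted p 0.0390) and at 30 min (-0.52, adjusted p 0.0428). The other window downstream of Trib3, chr2:152332243-152332842, sits at the start of Rbck1, a subunit gene of a ubiquitin ligase. It averaged, in CPM, 71.3 ± 4.61 at 0 min, 65.0 ± 8.27 at 15 min and 72.0 ± 6.07 at 30 min, with overlapping groups.

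Chac1 encodes a cytosolic enzyme that breaks down glutathione. Its start window, chr2:119350846-119351445, held 23.4, 32.2 and 19.9 CPM at 0 min, 22.3, 13.9 and 18.7 CPM at 15 min, and 16.4, 19.4 and 14.0 CPM at 30 min. The groups overlapped at 15 min and were separate at 30 min. The log2 change was -0.46 ± 0.20 at 15 min (adjusted p 0.174) and -0.60 ± 0.21 at 30 min (adjusted p 0.142), and neither was called.

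Asns encodes asparagine synthetase, which makes asparagine from aspartate and glutamine. Its start window, chr6:7692972-7693571, held 62.7, 39.2 and 59.0 CPM at 0 min, 64.0, 53.2 and 69.2 CPM at 15 min, and 58.3, 49.4 and 50.5 CPM at 30 min. It was the only tested window of the set with a log2 change above 0 at 15 min, at 0.21 ± 0.15 (adjusted p 0.441). The 95% interval of that change was -0.11 to 0.52 on the log2 scale, so that a level up to 1.44 times that at 0 min lies within it. At 30 min the change was -0.03 ± 0.15, with an interval of -0.34 to 0.29.

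Nupr1 encodes a small stress-induced chromatin protein. It had 2 start windows, both inside the overlapping gene Gm39087, so their reads cannot be given to one gene without strand. The window centred 584 bases after the start, chr7:126624586-126625185, held 9.74, 9.85 and 7.87 CPM at 0 min, 6.17, 6.29 and 12.1 CPM at 15 min, and 4.74, 4.47 and 5.69 CPM at 30 min. Library 3 of 15 min was the highest of the 9, and the 30 min libraries were below all at 0 min. The log2 change was -0.20 ± 0.27 at 15 min (adjusted p 0.708) and -0.90 ± 0.28 at 30 min (adjusted p 0.108).

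The other Nupr1 start window, chr7:126625230-126625829, averaged, in CPM, 3.63 ± 1.44 at 0 min, 3.44 ± 1.85 at 15 min and 3.49 ± 1.91 at 30 min. Its 95% interval at 15 min was -0.90 to 0.86 on the log2 scale, so that a change in either direction up to these values lies within it. The window 3346 bases past the 3′ end, chr7:126619600-126620199, averaged, in CPM, 5.41 ± 0.321 at 0 min, 4.21 ± 0.258 at 15 min and 3.59 ± 0.899 at 30 min. Its groups did not overlap at either time, and it was not called (adjusted p 0.514 at 15 min and 0.371 at 30 min).

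**Figure D4:**
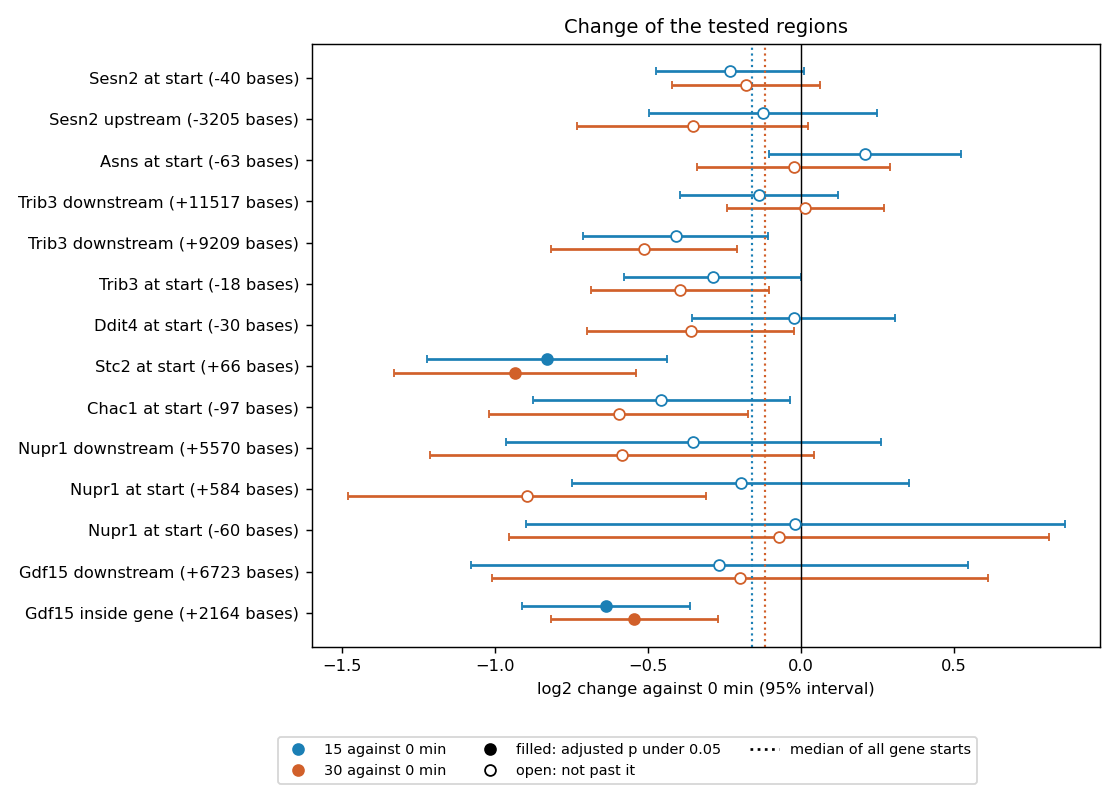
Log2 change against 0 min with its 95% interval for each of the 14 tested windows, at 15 min (blue) and 30 min (orange), with the window's distance from the nearest annotated start in bases. Filled dots were called, dotted lines mark the median of all gene start windows (-0.16 at 15 min and -0.12 at 30 min), and 13 of 14 windows lie below 0 at each time.

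Across the set, 13 of the 14 tested windows had a log2 change below 0 at 15 min, with a median of -0.25. At 30 min it was again 13 of 14, with a median of -0.38. Without the filter, which adds the windows with few reads, 13 of 17 were below 0 at 15 min and 15 of 17 at 30 min. Over all tested windows the median was 0.02 at 15 min and -0.00 at 30 min, with 48.0% and 50.1% of them below 0. Windows at gene starts in general were shifted the same way, with a median of -0.16 at 15 min and -0.12 at 30 min, and with 68.1% and 68.7% of them below 0. Of start windows, 1.67% were called higher and 8.93% lower at 15 min, and 0.427% higher and 0.766% lower at 30 min. The 3 libraries of each time lay wholly below those of 0 min in 5 of the 14 windows at 15 min and in 9 at 30 min, where 11.8% and 9.39% of all tested windows did so. In 0 of the 14 windows did they lie wholly above, where 13.7% of all tested windows did so at 15 min and 11.0% at 30 min. Of the 8 tested start windows of the set, 2 lay wholly below at 15 min and 6 at 30 min. Of the 6 windows away from starts, 3 did so at each time. The share of all start windows that lay wholly below was not computed, and start windows in general were shifted down.

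The direction depends in part on the scaling. With factors taken only from windows at gene ends, the median over all windows moved to 0.19 at 15 min and 0.11 at 30 min, and that of start windows to -0.00 and -0.01. Start windows lie largely among the gene-end windows, so a median near 0 for them follows from that scaling. The median of the 14 windows was then -0.09 at 15 min and -0.27 at 30 min, with 9 and 11 of the 14 below 0. Over all windows the calls at 15 min were 4117 higher and 969 lower under that scaling, and 2331 higher and 2148 lower as reported. At 30 min they were 1107 higher and 132 lower, and 675 higher and 270 lower as reported. Gdf15 at 15 min and Stc2 at both times were called lower under either scaling.

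Between 30 and 15 min, 0 of the 14 windows were called in edgeR or in DESeq2, where 0.704% of all tested windows were called, 0.214% higher and 0.490% lower (0.205% and 0.312% of start windows). At an unadjusted p under 0.05, 2 were lower at 30 min than at 15 min, the Ddit4 start window (log2 change -0.34 ± 0.16, adjusted p 0.516) and the Nupr1 window at 584 bases (-0.70 ± 0.29, adjusted p 0.410). Of all 54299 tested windows, 5230 passed that level, in either direction. For Gdf15 the change was 0.09 ± 0.14 and for Stc2 -0.10 ± 0.20. The groups did not overlap in 1 window in each direction, Gdf15 higher and Nupr1 lower, where 7.80% and 8.17% of all tested windows did so.

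The wider pathway was read at gene starts, or at either end for genes whose start was not given here. It comprised 8 lists of 93 genes, of which 86 had a start window and 83 passed the filter. Hspd1 and Hspe1, neighbouring mitochondrial chaperonin genes, share a window, so these are 85 and 82 distinct windows, and counts of genes include that window for each of them. At 15 min, 0 of the 83 were called higher and 3 lower, with a median log2 change of -0.03. At an unadjusted p under 0.05 there were 16, where 12586 of all 54299 tested windows passed. At 30 min, 0 were called in either direction in edgeR or DESeq2, with a median of -0.10. There 7 had an unadjusted p under 0.05, where 8248 of the 54299 windows did. The 3 calls at 15 min were Gpt2, Sars and Xpot. The direction of the calls at 15 min turned with the scaling: with factors from gene ends, 5 genes were called higher (Eprs, Hspa5, Manf, Hspa9 and Phb2) and 1 lower (Gpt2). Under that scaling 4117 of the 54299 windows were called higher and 969 lower, so calls over all windows moved the same way. Without library 3 of 15 min, 0 were called higher and 10 lower, where the calls over all windows numbered 6412 in place of 4479. Those 10 were Gpt2, Sars, Eif2ak3, Oma1, Aldh18a1, Sdf2l1, Creld2, Dnajc3, Lonp1 and Tufm. Against the 8.93% of all start windows called lower at 15 min, 3 of 83 is no larger a share.

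Gpt2 encodes mitochondrial alanine aminotransferase and belongs to the list for amino acid and one-carbon synthesis. Its start window held 22.7, 17.5 and 30.8 CPM at 15 min, against 46.6, 36.0 and 39.9 CPM at 0 min, a log2 change of -0.80 ± 0.20 (adjusted p 0.0132). At 30 min it held 18.8, 34.9 and 27.3 CPM, again below all 0 min libraries, and was not called (adjusted p 0.122). The call at 15 min was lost without library 1 of 0 min and without library 1 or 2 of 15 min. In the same list of 13 tested genes, Aldh18a1, which starts proline synthesis, had -0.63 ± 0.27 (adjusted p 0.150) and Got1, the cytosolic aspartate aminotransferase, -0.29 ± 0.13 (adjusted p 0.191), neither called at 15 min. Aldh18a1 was called lower without library 3 of 15 min (-0.88, adjusted p 0.0486). Pck2, the mitochondrial phosphoenolpyruvate carboxykinase, had -0.42 ± 0.19 at 30 min (adjusted p 0.295).

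Sars, the cytosolic seryl-tRNA synthetase, and Xpot, the exportin that carries tRNA out of the nucleus, were called lower among 10 tested genes of the aminoacyl-tRNA synthetase list at 15 min. Sars held 29.5, 24.2 and 28.7 CPM at 15 min, against 41.6, 36.3 and 37.2 CPM at 0 min (log2 change -0.49 ± 0.15, adjusted p 0.0473). Xpot held 40.2, 33.0 and 33.5 CPM at 15 min, against 47.8, 48.1 and 48.5 CPM at 0 min (log2 change -0.43 ± 0.13, adjusted p 0.0457). Both calls were lost with scaling factors from gene ends, without the filter and with only the groups compared in the fit, and also without most single libraries, library 3 of 15 min among them for Xpot (adjusted p 0.0730). Eprs, the glutamyl-prolyl-tRNA synthetase, had a change of 0.37 ± 0.14 (adjusted p 0.119) and was called higher with factors from gene ends (0.52, adjusted p 0.0247), and the list's median at 15 min was 0.08. At 30 min Cars and Yars, the cysteinyl- and tyrosyl-tRNA synthetases, had -0.26 ± 0.20 and -0.33 ± 0.19 (adjusted p 0.583 and 0.428).

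As reported, none of the other 6 lists had a call at 15 or 30 min in edgeR or DESeq2, and 3 of these lists gained calls at 15 min under alternatives named below. Among 12 genes of the eIF2 machinery the median log2 change was 0.07 at 15 min. There the protease gene Oma1, which relays mitochondrial stress, had -0.41 ± 0.17 (adjusted p 0.147), and Eif2s1, which encodes the phosphorylated subunit of eIF2, 0.23 ± 0.15 (adjusted p 0.385). Eif2b5, a subunit of the exchange factor that recharges eIF2, had 0.17 ± 0.10 at 15 min (adjusted p 0.329) and 0.28 ± 0.10 at 30 min (adjusted p 0.174). Without library 3 of 15 min, Oma1 (-0.57, adjusted p 0.0374) and Eif2ak3 (-0.66, adjusted p 0.0164) were called lower at 15 min. At 30 min Eif2ak3, the endoplasmic reticulum stress kinase PERK, had -0.27 ± 0.20 (adjusted p 0.580) and Eif2ak4, the amino acid sensing kinase GCN2, -0.23 ± 0.21 (adjusted p 0.665). The 6 genes of basic leucine zipper partners had a median of -0.06 at 15 min and -0.30 at 30 min. Atf3, an early stress factor, had 0.36 ± 0.23 at 15 min (adjusted p 0.363), and Cebpb, a C/EBP partner, -0.61 ± 0.31 at 30 min (adjusted p 0.352). Cebpg, another such partner, had -0.25 ± 0.22 at 15 min and -0.45 ± 0.23 at 30 min. Jdp2, a repressor at related sites, had -0.67 ± 0.33 at 15 min and -0.76 ± 0.33 at 30 min, with adjusted p from 0.221 to 0.541 for both genes at both times.

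The 8 tested amino acid transporter genes had a median of -0.15 at 15 min and -0.21 at 30 min. Slc7a5, which carries leucine and other large neutral amino acids, had -0.28 ± 0.17 at 15 min (adjusted p 0.335), and Slc6a9, a glycine transporter, -0.59 ± 0.28 at 30 min (adjusted p 0.304). The other transporter genes named by the rule were Slc1a4 (-0.29 ± 0.16) and Slc1a5 (-0.16 ± 0.12) at 15 min and Slc7a1 (-0.39 ± 0.18) at 30 min, which carry neutral or cationic amino acids. Among 5 other reported targets of ATF4 or CHOP the median was -0.17 at 15 min. Bbc3, which encodes the death protein PUMA, had 0.22 ± 0.13 (adjusted p 0.344), and Ero1a, an endoplasmic reticulum oxidase, -0.26 ± 0.14 (adjusted p 0.284). Adm2, a peptide hormone gene with few reads, had -0.47 ± 0.62 at 15 min, and Ndrg1, a stress and hypoxia gene, -0.44 ± 0.26 at 30 min (adjusted p 0.434).

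The 16 tested genes of the XBP1 and ATF6 branches had a median of 0.05 at 15 min, with 5 of them at an unadjusted p under 0.05 in either direction. Of all 54299 tested windows, 12586 were under it at 15 min. Hspa5, the main chaperone of the endoplasmic reticulum, had 0.25 ± 0.10 (adjusted p 0.110), and Dnajc3, a co-chaperone that inhibits PERK, -0.58 ± 0.22 (adjusted p 0.0933). Sdf2l1, another endoplasmic reticulum chaperone component, had -0.51 ± 0.18 at 15 min (adjusted p 0.0891). With factors from gene ends, Hspa5 (0.41, adjusted p 0.0212) and Manf, a secreted stress factor (0.54, adjusted p 0.0320), were called higher at 15 min. Without library 3 of 15 min, Dnajc3 (-0.77, adjusted p 0.0238), Sdf2l1 (-0.69, adjusted p 0.0183) and Creld2, an endoplasmic reticulum stress gene (-0.49, adjusted p 0.0191), were called lower, and the same 3 were called lower without library 2 of 0 min. At 30 min Pdia6, a disulfide isomerase, had -0.41 ± 0.22 and Calr, the calcium-binding chaperone calreticulin, 0.19 ± 0.11. The 13 genes (12 windows) of mitochondrial chaperones, proteases and translation factors had a median of -0.03 at 15 min and -0.00 at 30 min. In that list Hspa9, the mitochondrial form of the chaperone HSP70, had 0.22 ± 0.10 (adjusted p 0.171) and Lonp1, a matrix protease, -0.37 ± 0.14 (adjusted p 0.116) at 15 min. Phb2, an inner membrane scaffold gene, had 0.27 ± 0.13 at 15 min, and Yme1l1, an inner membrane protease, -0.16 ± 0.16 at 30 min. With factors from gene ends, Hspa9 (0.38, adjusted p 0.0340) and Phb2 (0.43, adjusted p 0.0487) were called higher at 15 min. Without library 3 of 15 min, Lonp1 (-0.53, adjusted p 0.0159) and Tufm, a mitochondrial elongation factor gene (-0.39, adjusted p 0.0332), were called lower.

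**Figure D5:**
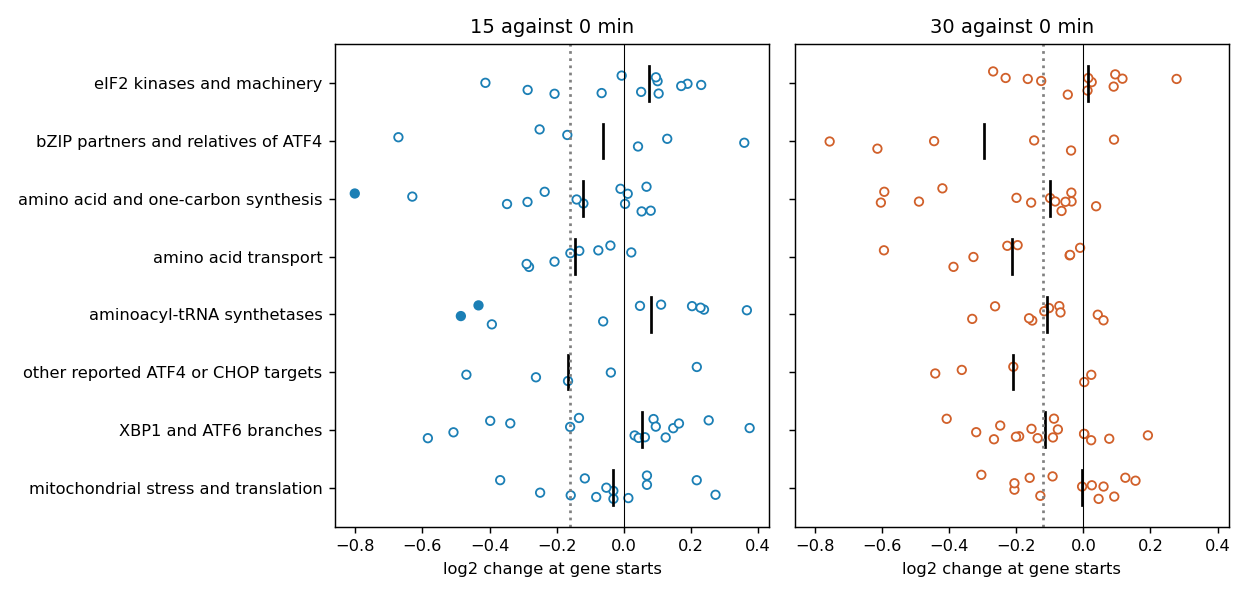
Log2 change of the start window of each tested pathway gene at 15 min (left) and 30 min (right) against 0 min, by list. Short black lines are list medians, the dotted line is the median of all gene start windows, and filled dots were called in the reported fit: Gpt2, Sars and Xpot, all lower, at 15 min, and none at 30 min. With scaling from gene ends the calls at 15 min are 5 higher and 1 lower, where 4117 of all 54299 tested windows are called higher and 969 lower.

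The promoter matches and the calls did not fall on the same genes. The start windows of Trib3, Chac1 and Asns, which hold the response element core, were not called in either direction, and nor were those of Nupr1. Stc2, which was called lower, holds no core in the promoter printed above. The promoters of Gdf15 lie outside its counting windows, so its call says nothing of them. With 1 called start window in the set, no relation between the core and the change was tested.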

How the data were processed

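PRO-seq libraries of mouse embryonic stem cells were analysed, 3 each at 0, 15 and 30 min of doxycycline. The authors deposited raw read counts per library over 174289 windows of 600 bp, and a list of their coordinates and of the region calls behind them. These coordinates are genome positions per the file headers and the deposited list, on mm10 per the submitters' processing notes. Those notes name HISAT2, featureCounts and DESeq2 1.26.0. Strand use in counting is not given in the sources used here.

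Counts were fitted with edgeR 4.0.16 (limma 3.58.1, R 4.3.3): filterByExpr on the groups, TMM, the quasi-likelihood test with time as a factor over all 9 libraries, and Benjamini-Hochberg over the 54299 windows tested, with a threshold of 0.05. SE is the log2 change divided by the square root of F. A start window is the one with the highest mean count centred within 1 kb of an annotated start. For genes without a RefSeq promoter here it was taken within 1 kb of either gene end, so it may lie at the 3′ end. Among the genes named this holds for Manf, Hspa9, Slc7a5, Slc1a5, Cars and Ndrg1. It also holds for the fibroblast and primitive endoderm markers with a window, and for part of the background of all start windows. DESeq2 1.42.0, other scalings and filters, a replicate block and leaving out each library were alternatives. The fit was tested on simulated data with the same spread for all windows and with changes placed only at windows with many reads. That test does not cover windows with few reads. The spread between replicates was 15.1% (common coefficient of variation). Promoters and gene coordinates come from RefSeq (GRCm38.p6), and all 10 genes matched by symbol.

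The genes named are the 10 genes and, from each list, the 3 with the smallest p at 15 min and the 3 at 30 min, given for a time that named them. Manf, Creld2 and Tufm are named after their values were seen, since an alternative called them. A planned search for genes most like Atf4 could not be made, since Atf4 has no window. The genes and lists were chosen with earlier results of these data known.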

Additional observations from a re-analysis of the deposited data

How the results depend on the processing

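The 42 changes of the tested windows were recomputed under 18 alternatives, which gave 756 values: 706 kept their direction and their side of the threshold, 11 kept the direction and lost the call, 3 gained a call and 36 changed sign, each of these at a change that was not called. Windows of the set called at 30 min numbered 1 with scaling from gene ends. With that scaling, the pathway lists at 15 min had 6 calls, 5 higher and 1 lower. Calls over all windows were then 4117 higher and 969 lower. As reported, the lists had 0 higher and 3 lower. They had 1 call without the filter or with only 2 groups in the fit, and at 30 min 1 call without the filter. Leaving out each library gave 1 to 4 calls of the set at 15 min and 0 to 3 at 30 min, 0 to 10 pathway calls at 15 min (all lower, and 10 without library 3 of 15 min), and 2123 to 6412, 171 to 1510 and 154 to 548 calls over all windows at 15 against 0, 30 against 0 and 30 against 15 min. The cause was not tested.

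With scaling from gene ends, the log2 change at 15 min was 0.15 for the Ddit4 start, 0.014 for the Trib3 window at Rbck1, 0.040 for the upstream Sesn2 window and 0.14 for the Nupr1 window at its promoter, and at 30 min 0.040 for that Nupr1 window and 0.093 for Asns. The window at Rbck1 had -0.0032 at 30 min with library size alone and -0.019 without the filter. Over left-out libraries, the changes that took either sign ranged as follows. At 15 min they were -0.18 to 0.12 (Ddit4), -0.58 to 0.28 (Nupr1 at its promoter) and -0.57 to 0.070 (Gdf15 past its end). At 30 min they were -0.57 to 0.24 (Nupr1 at its promoter), -0.45 to 0.14 (Gdf15 past its end), -0.037 to 0.079 (Rbck1) and -0.21 to 0.11 (Asns). Between 30 and 15 min they were -0.54 to 0.51 (Nupr1 at its promoter), -0.27 to 0.38 (Gdf15 past its end), -0.20 to 0.060 (Stc2), -0.30 to 0.043 (Chac1), -0.17 to 0.0025 and -0.21 to 0.0054 (Trib3 past its end and at its start) and -0.033 to 0.20 (Sesn2 start).

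Replicate numbers in the labels are shared between times, and the deviations of same-numbered libraries correlated at -0.04 to 0.16, and not every library correlated best with its own number, so the numbers were not taken to pair libraries. With the replicate number as a block, calls over all windows were 4804, 1107 and 421, and the set kept 2, 2 and 0 calls. Low counts limit the Nupr1 windows and the outer Gdf15 window.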
